A study of Homo sapiens with 5 samples.

Results

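The genes described here are 10 isoforms of protein kinase C and protein kinase D, taken from a fixed list of symbols: PRKCA, PRKCB, PRKCD, PRKCE, PRKCH, PRKCI, PRKCZ, PRKD1, PRKD2 and PRKD3. AKAP12 is a scaffold protein that binds protein kinase C. All 10 were among the 26485 genes counted, and all 10 passed the filter on low counts that left 14536 genes for testing. They were measured in SW480 cells, a human cell line established from a colorectal cancer, by RNA sequencing from the 3' end of transcripts. Per the labels' protocols, every library, control or not, came from cells carrying dCas9-KRAB, which pairs a Cas9 that cannot cut with a repressor domain and silences the gene that a guide RNA directs it to. The 2 control libraries had control guides and the 3 knockdown libraries had a guide or guides against AKAP12, with RNA taken 48 hours after the cells were seeded. The titles instead name the groups shControl and shAKAP12, as for short hairpin RNAs. The sources used here give neither the guide sequences nor whether the cells were a clone.

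Protein kinase C enzymes are serine/threonine kinases, most of which sit inactive in the cytosol until lipid second messengers recruit them to membranes. The conventional isoforms (PRKCA, PRKCB) need calcium and diacylglycerol, a middle group (PRKCD, PRKCE, PRKCH) needs diacylglycerol but not calcium, and the atypical isoforms (PRKCI, PRKCZ) need neither and act with cell polarity proteins. Protein kinase D enzymes (PRKD1, PRKD2, PRKD3) bind diacylglycerol too and are phosphorylated and switched on by protein kinase C. In colon epithelium these kinases are known for roles in growth control, polarity and secretion, and PRKCI is regarded as a tumour-promoting isoform.

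Total counts were 4935096 and 8670141 in control 1 and control 2 and 6890868 to 9311026 in the knockdown. AKAP12 was at 2870 and 1550 CPM (counts scaled to a common library total with TMM factors) in the controls and at 1159, 1063 and 1008 CPM after knockdown, so that no knockdown library reached either control. Its log2 fold change was -1.04 (SE 0.31, edgeR adjusted p = 0.0513), which missed the threshold of 0.05. Control 1 stood apart from the other libraries: TERT took 7.43% of its reads and short non-coding RNA genes 8.62%, against 3.54% and 1.68% in control 2 and at most 0.249% and 0.895% in the knockdown. Across genes, which do not count as independent replicates, log2 CPM correlated at 0.90 (Pearson's r) between the controls and at 0.98 for each pair of knockdown libraries. Control 2 correlated with the knockdown libraries at 0.92 to 0.93, above its value with control 1, and control 1 correlated with them at 0.79 to 0.81. Every isoform is therefore given with its value in each control.

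Markers of the labelled cell type were partly absent. Of 12 colorectal epithelial markers, EPCAM, KRT18 and KRT19 were abundant, CDX1 had no read in any library, and KRT20, GPA33 and LGALS4 had 7 reads or fewer in each. The summed epithelial level was 1031 and 1541 CPM in the controls and 1355 to 1610 CPM in the knockdown. The 13 blood markers, of a cell type in which PRKCB and PRKCH are well known, all passed the filter. Their summed level was 139 and 192 CPM in the controls and 151 to 174 CPM in the knockdown. Of the 13, 0 rose and 3 fell, or 23.1%, where 11.4% of all tested genes were called lower and 22.6% in either direction. The 3 were CD3D, CD68 and CSF1R (log2 fold change -1.41, and -0.77 without control 1). The median log2 fold change of the 13 was 0.06, with -0.15 without control 1 and 0.50 without control 2. PTPRC, which encodes the leukocyte antigen CD45, was at 28.9 and 43.6 CPM in the controls. The 11 stromal markers summed to 492 and 622 CPM against 563 to 646 CPM. Of the 10 tested, 0 rose and 1 fell, PDGFRA (-1.08, edgeR adjusted p = 0.0265). Their median log2 fold change was 0.19, with -0.04 without control 1 and 0.51 without control 2. Among the 8 epithelial markers tested, KRT8, whose exons overlap KRT18, rose (1.78, edgeR adjusted p = 0.0195). SW480 is a cell line, and the source of the blood and stromal marker reads was not tested. Nor was the part of any other cell types in the isoform levels, where fewer cells cannot be told apart from less RNA per cell.

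Promoter windows from RefSeq (GRCh38.p14), from 250 bases before to 50 after an annotated start, were found for all 10 isoforms, 17 windows in all because some genes have several starts. Of these, 3 are shown for the isoforms that the results below turn on, the atypical pair and PRKD2. Capitals mark the GC box GGGCGG and the cAMP response element TGACGTCA, searched on both strands. The windows are PRKCI on the plus strand (chr3:170222174-170222473), PRKCZ on the plus strand at 1 of its 4 listed starts (chr1:2073414-2073713), and PRKD2 on the minus strand (chr19:46717065-46717364).
PRKCI: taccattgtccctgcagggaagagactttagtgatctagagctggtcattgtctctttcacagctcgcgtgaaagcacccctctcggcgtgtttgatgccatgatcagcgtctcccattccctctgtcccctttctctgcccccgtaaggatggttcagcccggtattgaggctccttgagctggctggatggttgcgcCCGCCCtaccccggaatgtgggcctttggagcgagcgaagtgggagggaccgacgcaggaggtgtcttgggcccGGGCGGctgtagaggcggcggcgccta
PRKCZ: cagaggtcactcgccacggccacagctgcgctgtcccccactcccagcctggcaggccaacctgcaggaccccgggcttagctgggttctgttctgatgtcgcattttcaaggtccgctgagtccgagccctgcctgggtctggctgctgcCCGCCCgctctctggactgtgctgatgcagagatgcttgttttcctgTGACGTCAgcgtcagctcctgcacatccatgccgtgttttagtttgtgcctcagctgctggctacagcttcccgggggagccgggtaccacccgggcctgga
PRKD2: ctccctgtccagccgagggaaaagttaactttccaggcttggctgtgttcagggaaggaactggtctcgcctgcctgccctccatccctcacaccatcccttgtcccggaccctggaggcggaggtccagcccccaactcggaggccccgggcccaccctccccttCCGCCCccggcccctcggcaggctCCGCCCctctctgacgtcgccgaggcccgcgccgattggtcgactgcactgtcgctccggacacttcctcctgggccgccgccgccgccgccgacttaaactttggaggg
A GC box was in 14 of the 17 isoform windows, and in 45.0% of 35116 promoter windows of the same length. The isoform windows were richer in G and C, with a median of 74.0% against 58.7% for all windows. The full cAMP response element was in the PRKCZ window above, in no other PRKCZ window and in no other isoform, and in 1.85% of all windows. The PRKCZ window shown lies inside the counted gene, which begins at 2050470. The PRKCZ window at 2050161 to 2050460, next to that beginning, lacked the element and had 10 GC boxes. The element named after the phorbol ester TPA, a drug that activates protein kinase C (TGANTCA, the AP-1 site), was in none of the 17 isoform windows and in 7.71% of all windows. These matches describe letters in a window and say nothing of whether a factor binds there.

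No isoform passed the threshold in the comparison of knockdown with control. By the quasi-likelihood test of edgeR 0 of 10 were called, 0 higher and 0 lower, where 22.6% of all tested genes were called (11.2% higher and 11.4% lower). At an unadjusted p under 0.05 there was 1 isoform, PRKD2, where 40.5% of all genes were under it. DESeq2 called 1 isoform, also PRKD2, where it called 30.7% of all genes, and limma-voom called 0 (1 at an unadjusted p under 0.05). The fitted values were negative for 8 isoforms and positive for 2 (PRKCD and PRKCI), with a median log2 fold change of -0.37 against 0.04 for all tested genes. Without control 1 the median was -0.10 against 0.02, and PRKCB and PRKCH turned positive. Without control 2 the median was -0.33 against 0.12. The groups did not overlap for 3 of the 10 isoforms, 1 higher (PRKCD) and 2 lower (PRKD2 and PRKD3), whereas they did not overlap for 60.1% of all tested genes (31.6% higher and 28.5% lower). The smallest p that an exact permutation test of a single gene can give with 2 and 3 libraries is 0.1. The intervals were wide: the 95% interval of a log2 fold change spanned 1.13 to 3.28 across the isoforms, so the absence of a call does not show that levels were equal.

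**Figure D1:**
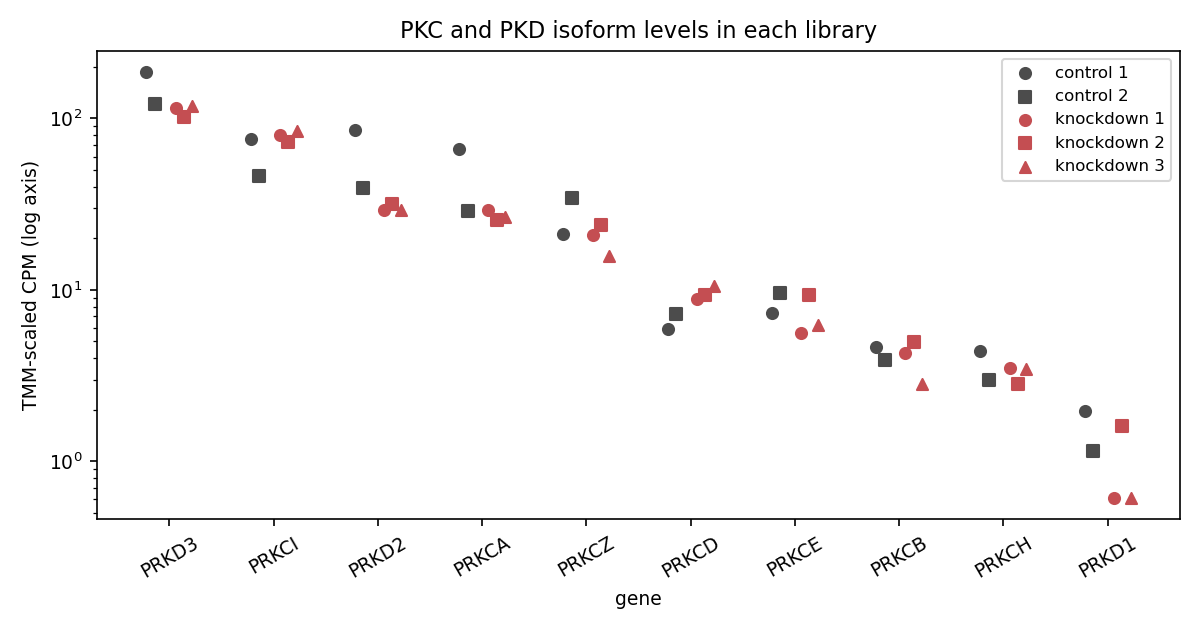
TMM-scaled CPM (log axis) of the 10 isoforms in each library, in order of mean level, with 1 point per library, grey for the 2 controls and red for the 3 knockdown libraries. PRKD3 is the highest isoform in all 5 libraries and PRKD1 the lowest, and control 1 lies above every other library for PRKD3, PRKD2 and PRKCA.

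Levels of different isoforms were compared per length. In the knockdown, mean levels per kilobase of exon were 18.9 CPM per kb for PRKD3, 16.3 for PRKCI, 7.69 for PRKD2, 6.53 for PRKCZ, 3.38 for PRKCD, 3.09 for PRKCA, 1.28 for PRKCE, 0.841 for PRKCH, 0.503 for PRKCB and 0.257 for PRKD1. On this scale the ranges of 4 neighbouring pairs overlapped among the knockdown libraries, PRKD3 with PRKCI, PRKD2 with PRKCZ, PRKCD with PRKCA and PRKCB with PRKD1. In the controls PRKD3 was also highest (26.1 CPM per kb on average) and PRKD1 lowest (0.422), and the ranges of PRKD3, PRKD2, PRKCI, PRKCZ and PRKCA, in that order, each overlapped that of the next. Libraries that read transcripts from the 3' end depend less on length than whole-transcript libraries, so the order in plain CPM is given too. It began PRKD3, PRKCI, PRKD2, PRKCA, PRKCZ in the knockdown and PRKD3, PRKD2, PRKCI, PRKCA, PRKCZ in the controls. In plain CPM the knockdown ranges of PRKD3 (102 to 119) and PRKCI (73.4 to 85.1) did not overlap. PRKCA (25.4 to 29.2 CPM) lay above PRKCD (8.80 to 10.6 CPM) in the knockdown, so these overlaps depend on the scale.

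Among the conventional isoforms, PRKCA, the widely expressed founding member of the family, was the abundant one. PRKCA (chromosome 17, 66302808 to 66810744, hg38, plus strand) was at 66.6 and 28.8 CPM in the controls and at 29.2, 25.4 and 26.6 CPM in the knockdown (27.1 ± 1.92, SD, n = 3). Control 1 alone was high, and control 2 lay within the range of the knockdown libraries. Its log2 fold change was -0.81 (SE 0.35, 95% interval -1.64 to 0.03, edgeR adjusted p = 0.134). It was -0.09 without control 1 and -1.30 without control 2. PRKCB, the isoform of B-cell receptor signalling (chromosome 16, 23835979 to 24220611, plus strand), had 19 and 34 reads in the controls, and the knockdown libraries had 42, 37 and 23, or 4.65 and 3.90 CPM against 4.30, 4.96 and 2.83 CPM. The groups overlapped throughout, and the log2 fold change was -0.07 (95% interval -1.03 to 0.88, edgeR adjusted p = 0.906). It turned positive without control 1 (0.05) and when scaled by library size only (0.14). The exact Poisson interval, which describes counting error alone, was 2.80 to 7.27 CPM in control 1 and 1.79 to 4.24 CPM in knockdown 3. It was 3.10 to 5.81 CPM in knockdown 1 and 3.49 to 6.83 CPM in knockdown 2, and all of these intervals overlap.

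The diacylglycerol-dependent, calcium-independent isoforms were all low in plain CPM. PRKCD, often linked to apoptosis and growth arrest (chromosome 3, 53161207 to 53192717, plus strand), had 24 and 63 reads in the controls, and the knockdown libraries had 86, 70 and 86, or 5.88 and 7.23 CPM against 8.80, 9.38 and 10.6 CPM. All 3 knockdown libraries were above both controls. The log2 fold change was 0.53 (SE 0.29, 95% interval -0.15 to 1.22, edgeR adjusted p = 0.209), and it was 0.41 without control 1 and 0.70 without control 2. It was positive with either control and did not pass with either.

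PRKCE, an isoform with oncogenic activity in several cell types (chromosome 2, 45651904 to 46187990, plus strand), was at 7.35 and 9.63 CPM in the controls and 5.63, 9.38 and 6.27 CPM in the knockdown. The groups overlapped, with a log2 fold change of -0.28 (95% interval -1.10 to 0.55, edgeR adjusted p = 0.577). PRKCH, the epithelial and T-cell isoform known as PKC eta (chromosome 14, 61321443 to 61550980, plus strand), was at 4.41 and 2.98 CPM against 3.48, 2.81 and 3.44 CPM. Its log2 fold change of -0.15 (95% interval -1.10 to 0.80, edgeR adjusted p = 0.797) was 0.13 without control 1 and 0.06 by library size only.

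The atypical isoforms showed opposite signs, and their controls disagreed in opposite ways. PRKCI (chromosome 3, 170222432 to 170305982, plus strand), which encodes the atypical isoform iota of the PAR polarity complex, was at 75.4 and 46.3 CPM in the controls and at 80.1, 73.4 and 85.1 CPM in the knockdown (79.5 ± 5.86, SD, n = 3). The knockdown libraries lay around control 1 and well above control 2. The log2 fold change was 0.39 (SE 0.26, 95% interval -0.22 to 1.00, edgeR adjusted p = 0.291). It was 0.07 without control 2. Without control 1 it was 0.78 and passed the threshold (edgeR adjusted p = 0.000578).

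PRKCZ (chromosome 1, 2050470 to 2185395, plus strand), the atypical isoform zeta, was at 21.1 and 34.2 CPM in the controls and 20.8, 23.8 and 15.7 CPM in the knockdown. Control 1 fell within the range of the knockdown libraries and control 2 above it. The log2 fold change was -0.47 (SE 0.30, 95% interval -1.18 to 0.24, edgeR adjusted p = 0.281), with -0.07 without control 2, and -0.76 without control 1, where it passed (edgeR adjusted p = 0.00683). Without control 1, 1 of 10 isoforms was thus called higher and 1 lower, where 20.3% and 17.0% of all genes were. These fits assume that the lone control varies as the knockdown libraries do, whereas the controls correlated less with each other than those libraries did. Exons of PRKCZ overlap those of FAAP20, a DNA repair gene on the opposite strand. The overlap lies within positions 2184460 to 2185395, at the 3' ends of both genes, the end from which these libraries were read. The counts were made without strand, so their reads cannot be told apart there. FAAP20 itself was at 92.3 and 69.3 CPM in the controls and 33.8 to 40.2 CPM in the knockdown, where it fell by 1.09 on the log2 scale (edgeR adjusted p = 0.0220). The part of FAAP20 reads in the PRKCZ counts was not tested, and the same limit holds for the PRKCZ shares and ratios given below. PRKCZ was the only isoform of the 10 with exons that overlap another gene.

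The protein kinase D genes held the highest isoform and the one nearest to the threshold. PRKD2 (chromosome 19, 46674316 to 46717127, minus strand), an isoform studied in lymphocytes and in tumour cells, was at 85.2 and 39.5 CPM in the controls and at 29.4, 31.9 and 29.1 CPM in the knockdown (30.1 ± 1.52, SD, n = 3). All knockdown libraries were below both controls, and they differed from each other far less than the controls did. The fitted level was 2.06-fold lower, with a log2 fold change of -1.04 (SE 0.33, 95% interval -1.82 to -0.27, edgeR adjusted p = 0.0601). DESeq2 called it (adjusted p = 0.0285), as did edgeR without a filter on low counts (adjusted p = 0.0434, where 16.9% of genes were called). Adjusted p values over all alternatives that kept both controls ran from 0.0285 to 0.245. The size rested on control 1, since the log2 fold change was -0.39 without it and -1.51 without control 2.

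PRKD3 (chromosome 2, 37250503 to 37317079, minus strand), a protein kinase D isoform that lacks some of the regulatory motifs of its relatives, was at 187 and 121 CPM in the controls and 115, 102 and 119 CPM in the knockdown. The groups did not overlap, but knockdown 3 was within a few CPM of control 2. The log2 fold change was -0.46 (SE 0.24, 95% interval -1.03 to 0.10, edgeR adjusted p = 0.193), and -0.12 without control 1. PRKD1, the founding protein kinase D (chromosome 14, 29576481 to 29927693, minus strand), was close to the limit of detection with 8 and 10 reads in the controls, and the knockdown libraries had 6, 12 and 5. A count of 0 would allow up to 3 reads, or 0.735 CPM for control 1 and 0.307 to 0.402 CPM elsewhere, and PRKD1 was at 0.614 to 1.96 CPM. Its log2 fold change of -0.67 had an interval of -2.31 to 0.96 (edgeR adjusted p = 0.495), so no difference was detectable at this depth. Without control 2, 3 isoforms were called lower (PRKCA, PRKD2 and PRKD3), where 27.6% of all genes were lower, 30.5% higher and 58.1% called in all.

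**Figure D2:**
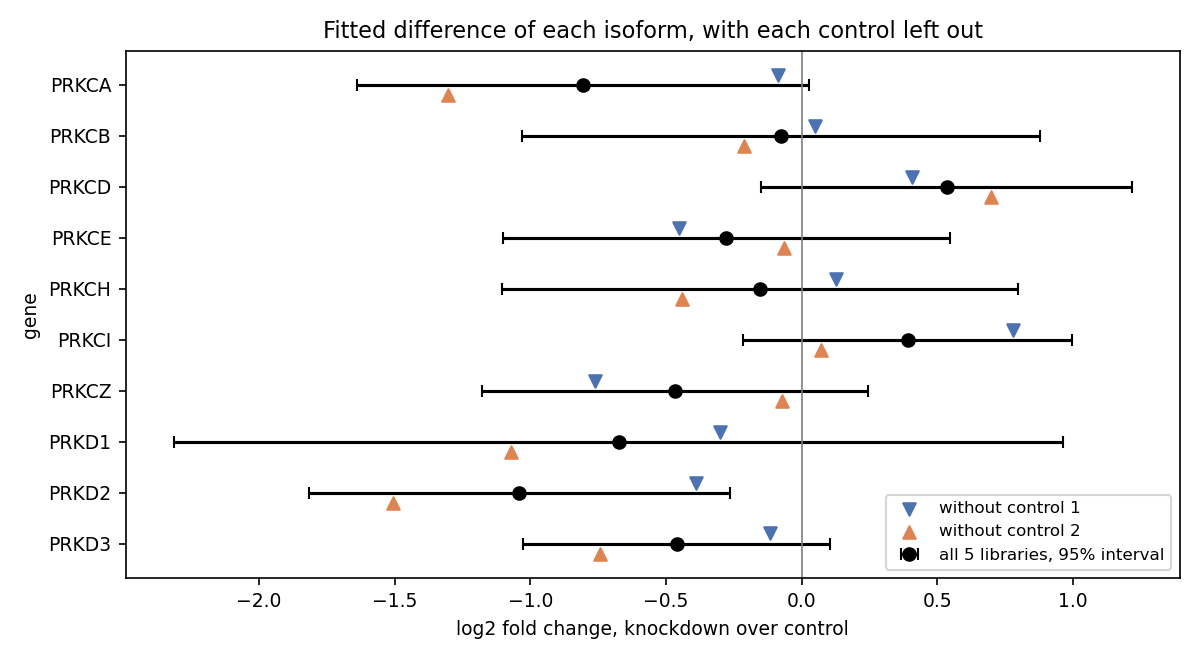
Log2 fold change of each isoform, knockdown over control. Black points and bars are the fit of all 5 libraries with its 95% interval, blue triangles the fit without control 1 and orange triangles the fit without control 2. Of the 10 intervals only that of PRKD2 (-1.82 to -0.27) leaves out 0, without adjustment for multiple tests.

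The share of each isoform in the reads of all 10 needs no scaling factor. The 10 genes together held 1875 and 2571 reads in the controls, and the knockdown libraries had 2900, 2122 and 2434, a summed level of 459 and 295 CPM against 297, 284 and 299 CPM. Control 2 and the knockdown libraries were thus alike in total, and control 1 was higher. PRKCI made up 16.4% and 15.7% of these reads in the controls, and the knockdown libraries had 27.0%, 25.8% and 28.4%. The controls were close to each other here, and all 3 knockdown libraries were above them. PRKD2 made up 18.6% and 13.4% in the controls, and the knockdown libraries had 9.90%, 11.2% and 9.74%. PRKD3 held 40.6% and 41.1% against 38.6%, 35.7% and 39.8%, and PRKCD 1.28% and 2.45% against 2.97%, 3.30% and 3.53%. PRKCZ held 4.59% and 11.6% in the controls, on both sides of the 5.26% to 8.39% in the knockdown. For PRKCZ, PRKCE, PRKCD and PRKCB the controls were further apart in share than in level, and for the other isoforms they were closer. The Wilson 95% interval of these shares, which covers counting error only, had bounds at most 2.22 percentage points from the value, averaged over both sides.

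Shares of PRKCI, PRKCD, PRKD2 and PRKD3 did not overlap between groups, 4 of 10. When every tested gene was divided by the same summed isoform reads, 56.5% did not overlap (37.6% higher and 18.9% lower). By class, the atypical pair made up 21.0% and 27.3% in the controls, and the knockdown libraries had 34.0%, 34.2% and 33.7%, and the 3 protein kinase D genes 59.6% and 54.9% against 48.7%, 47.5% and 49.7%. The conventional pair (15.5% and 11.1% against 11.3%, 10.7% and 9.82%) and the 3 diacylglycerol-only isoforms (3.84% and 6.73% against 6.03%, 7.59% and 6.78%) overlapped between groups.

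**Figure D3:**
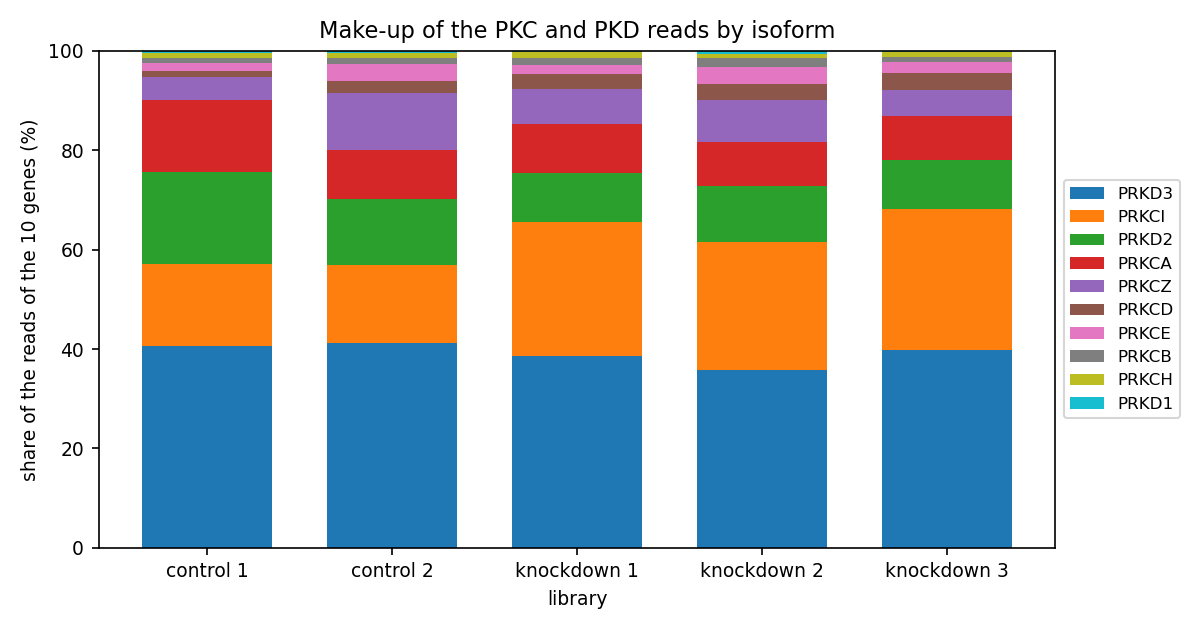
Share of the reads of the 10 isoforms held by each isoform (%), with 1 stacked bar per library. PRKCI takes 15.7% to 16.4% in the controls and 25.8% to 28.4% in the knockdown, and PRKD2 is narrower in every knockdown library than in either control.

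Ratios of 2 isoforms within a library need no scaling factor either. The groups did not overlap in 17 of the 45 possible pairs, or 37.8%, where 58.4% of all pairs of tested genes with reads in every library did not. The ratio of PRKCI to PRKD3, the 2 isoforms with the highest mean CPM over all 5 libraries, was 0.404 and 0.382 in the controls, and the knockdown libraries had 0.698, 0.723 and 0.715. This ratio was singled out after its values were seen. It was close to constant within each group although the levels of both genes in control 1 were well above those in control 2. Of the 9 isoforms other than PRKD3, 4 did not overlap between groups when divided by PRKD3 (PRKCD, PRKCH, PRKCI and PRKD2), where 57.4% of all tested genes did not. The ratio of PRKCI to PRKD2 was 0.885 and 1.17 in the controls, and the knockdown libraries had 2.72, 2.30 and 2.92. This pair had the widest gap between groups of all 45 (0.97 on the log2 scale), so it is the extreme of many pairs. The ratio of PRKCI to PRKCZ was 3.58 and 1.36 against 3.85, 3.08 and 5.41, so the atypical pair overlapped between groups.

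In the authors' deposited table of the comparison, 1 of the 10 isoforms had an adjusted p under 0.05, where 25.3% of its genes did. This was PRKD2, with a log2 fold change of -1.07 and an adjusted p of 0.0350. The authors' deposited table gave -0.84 for PRKCA, 0.52 for PRKCD, 0.37 for PRKCI and -0.48 for PRKCZ, with adjusted p from 0.134 to 0.439. The direction of the authors' values is not stated and was taken from their correlation with the edgeR values across 14536 genes (Pearson's r 0.999).

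Genes that make, remove or answer to diacylglycerol, and partners and substrates of the kinases, were counted in 9 lists. Of 97 genes tested in these lists, 5 rose and 15 fell, or 20.6% in either direction. Over all tested genes 22.6% were called, 11.2% higher and 11.4% lower, so only the share in either direction was near. When scaled by library size only, 7 genes of the lists rose and 8 fell, where 11.5% of all genes were higher and 6.76% lower. Among phospholipases C, which release diacylglycerol, 0 of 13 rose and 2 fell (median log2 fold change -0.29). PLCB2 fell from 69.8 and 40.0 CPM to 16.3, 21.6 and 20.4 CPM (log2 fold change -1.49, edgeR adjusted p = 0.0218), and the catalytically inactive relative PLCL1 was at -1.55 (-0.83 without control 1). Among diacylglycerol kinases, which remove the messenger, 0 of 9 rose and 2 fell (median -0.36). DGKD fell from 132 and 67.9 CPM to 37.4, 35.8 and 32.2 CPM (-1.50, edgeR adjusted p = 0.0221, -0.95 without control 1), and DGKA fell by 0.88. Of 10 tested genes for other proteins with a diacylglycerol-binding C1 domain, 0 rose and 1 fell (median 0.05), CDC42BPB at -0.90 (-0.45 without control 1). CHN1, a Rac GTPase-activating protein of this list, was at 1.26 and just missed the threshold (edgeR adjusted p = 0.0525). It passed by DESeq2 (adjusted p = 0.0129) and by limma-voom (adjusted p = 0.0478), and was at 0.81 without control 1 and 2.04 without control 2.

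Of 11 genes for priming and dephosphorylation, 0 rose and 4 fell (median -0.51). Among all tested genes 11.2% were called higher and 11.4% lower. By library size only, PDPK1, MLST8 and HSP90AB1 missed the threshold. PDPK1, the kinase that phosphorylates the activation loop of newly made protein kinase C, fell from 43.8 and 45.1 CPM to a mean of 27.6 ± 2.46 CPM (SD, n = 3). Its fitted log2 difference was -0.69, with an adjusted p of 0.0487 by edgeR. PHLPP1, a phosphatase that removes another of the priming phosphates, fell from 16.7 and 16.6 CPM to 8.29, 6.70 and 6.39 CPM (2.33-fold, edgeR adjusted p = 0.0249). In both genes the controls lay close together, and all knockdown libraries were below them. The chaperone gene HSP90AB1 fell from 5701 and 4051 CPM to 2551, 2252 and 2503 CPM, and MLST8, a subunit of the mTOR complexes whose exons overlap BRICD5, was at -1.18.

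Of 12 tested anchoring genes, 1 rose and 2 fell (median -0.06), where 11.2% of all tested genes were called higher and 11.4% lower. The caveolar protein kinase C binder SDPR fell from 87.7 and 25.3 CPM to 10.6, 10.0 and 7.62 CPM, a log2 fold change of -2.57 with an edgeR adjusted p of 0.0217, and of -1.42 when control 1 was left out. PICK1, a PDZ protein that binds PRKCA, was at -1.23 (-0.72 without control 1, where it did not pass). The 14-3-3 gene YWHAQ rose from 88.2 and 144 CPM to 329, 312 and 322 CPM (1.46, edgeR adjusted p = 0.0195). Of 12 atypical-kinase polarity partners, 1 rose and 1 fell (median 0.01). CDC42, the small GTPase that activates the PAR complex, was at 7.59 and 39.3 CPM in the controls and 127, 127 and 149 CPM in the knockdown (2.48, edgeR adjusted p = 0.0335, 4.14 without control 2). SQSTM1, the autophagy receptor that binds atypical isoforms, fell by 1.43, and its exons overlap MGAT4B and C5orf45.

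Of 15 tested substrates of protein kinase C, 2 rose and 0 fell (median 0.06). For these and the next list, 11.2% of all tested genes were called higher and 11.4% lower. MARCKSL1, a membrane and actin-binding substrate, rose from 12.2 and 14.3 CPM to 29.3, 29.5 and 43.8 CPM (log2 fold change 1.35, edgeR adjusted p = 0.0241). PEBP1, a kinase inhibitor, rose by 1.15 (0.73 without control 1, 1.77 without control 2), and MARCKS itself, the classical substrate, was at -0.10 (edgeR adjusted p = 0.759). Of 11 substrates of protein kinase D, 1 rose and 3 fell (median -0.36). HDAC7, a histone deacetylase that overlaps SLC48A1, was at -1.45, the cofilin phosphatase gene SSH1 at -1.35, and the sterol carrier gene OSBP at -1.21 (-0.72 without control 1). PI4KB, a Golgi lipid kinase that overlaps ZNF687, was at 1.35. When scaled by library size only, which called 18.2% of all genes (6.76% lower), 8 of the 20 calls in the lists missed the threshold (PLCL1, DGKA, CDC42BPB, PDPK1, MLST8, HSP90AB1, PICK1 and PEBP1). PLCL1, CDC42BPB and PICK1 also missed it by limma-voom, and PDPK1 without a filter.

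**Figure D4:**
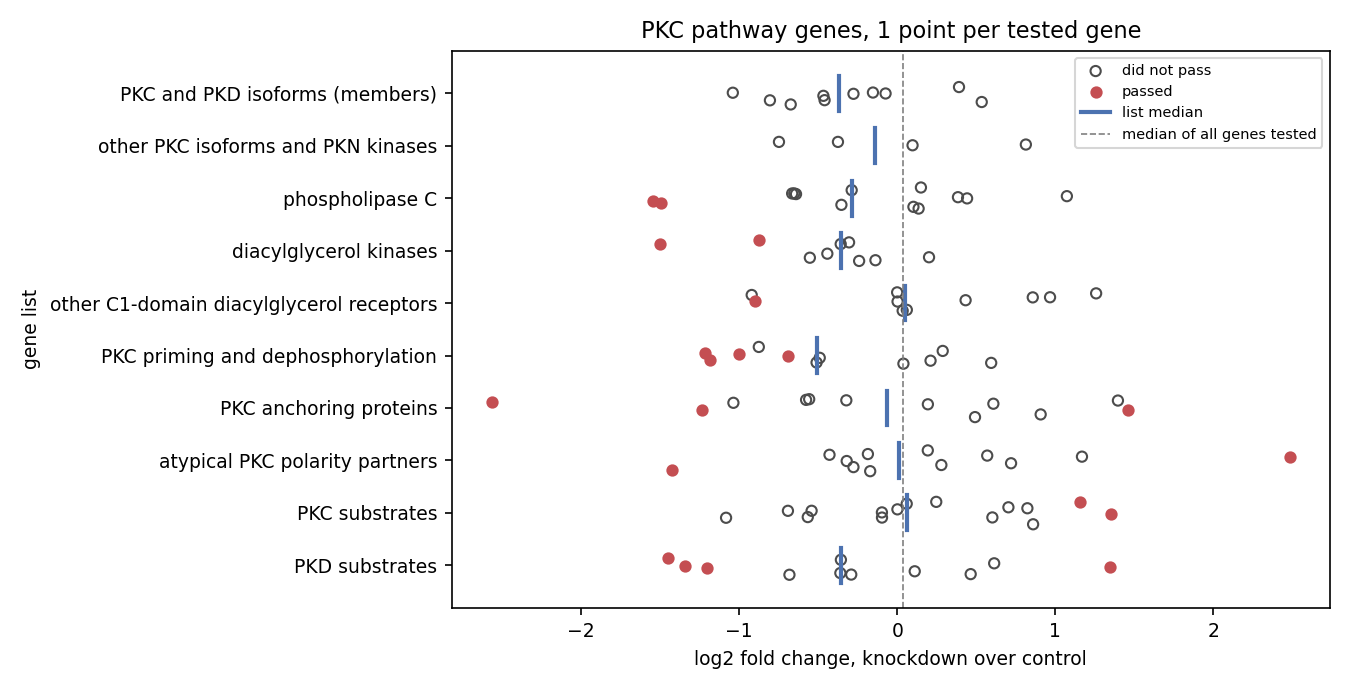
Log2 fold change (knockdown over control) of each tested gene in the isoform list and the 9 pathway lists, filled where the gene passed the edgeR threshold, with the list median as a blue bar and the median of all tested genes (0.04) as a dashed line. None of the 10 isoforms passed, and 20 of 97 pathway genes did, 15 of them to the left. Of all tested genes 11.4% passed to the left and 11.2% to the right.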

How the data were processed

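The data were gene counts from 5 libraries made with a QuantSeq forward kit, per the labels' protocols. The deposited counts are whole reads per gene, made by the authors with featureCounts 1.6.2 over exons, per the file headers. A read that overlaps several genes was counted for each, and no strand option was set. Alignment was to hg38 with STAR 2.7, per the submitters' processing notes. The sources used here name no trimming and no molecular identifiers, and intervals on counts therefore describe counting error alone. The authors' deposited table holds a log2 fold change and its standard error (log2), a mean signal, p-values and a test score. The submitters' processing notes name DESeq2 1.22.

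Genes were filtered with filterByExpr (minimum count 10), scaled by TMM and compared over all 14536 genes with the two-sided quasi-likelihood test (edgeR 4.0.16 in R 4.3.3), with Benjamini-Hochberg adjustment and a threshold of 0.05. SE is the absolute log2 fold change over the square root of F, and 95% intervals use the fit's degrees of freedom. Alternatives were DESeq2 1.42.0, limma-voom (limma 3.58.1), RLE scaling, library size only, removal of TERT and short RNA genes, no filter, a stricter filter (5 CPM in 2 libraries), the replicate number as a block, and each library left out. The fitting step was tested on simulated data. The labels do not say that libraries were separate cultures, so p-values measure the spread between these libraries, which may be technical. No 2 libraries agreed within sampling noise (chi-square per degree of freedom at least 5.30). The isoforms and lists were chosen with earlier results of these data known. Named genes were the isoforms, AKAP12, PRKCQ, and in each list all genes past the threshold or the 2 with the smallest p, except for items not reported here. The 3 genes nearest in profile to each of the 2 isoforms with the highest mean CPM were also named. MARCKS, FAAP20, PKN2, PKN3 and the markers quoted by level were named outside this rule.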

Additional observations from a re-analysis of the deposited data

How the results depend on the processing

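The count of isoforms called higher was 0 in all fits of all 5 libraries and 0 to 1 with a library left out. The count called lower was 1 by DESeq2 and 1 without a filter (PRKD2 in each), 0 in the other fits of all 5 libraries, and 0 to 3 with a library left out. AKAP12 was at -1.04 as reported (edgeR adjusted p = 0.0513) and passed by DESeq2 (-1.09), limma-voom (-0.98), without TERT and short RNA genes (-1.04), without a filter (-0.996) and with the stricter filter (-1.06). With a library left out it ran from -1.42 to -0.52. The replicate number as a block gave 210 calls over all genes against 3282, 0 isoforms, and 0 higher and 0 lower in the pathway lists. The numbers are not known to pair the libraries: deviations from the group means correlated at -0.05 for replicate 1 and -0.08 for replicate 2. With 2 controls, the deviations of the controls are mirror images of each other (correlation -1.0), so these values are not separate checks of pairing. With a library left out, calls ran from 0 to 8811 over all genes, and from 0 to 19 higher and 0 to 32 lower in the pathway lists. The count of 0 over all genes came from leaving out any knockdown library, where edgeR gave 3774 to 4109 genes at an unadjusted p under 0.05. By library size only, 8 pathway genes were called lower, the median gene shifted by 0.20, and 62.9% of all called genes were higher, against 49.5%. Under the stricter filter PRKCB, PRKCH and PRKD1 were not tested. The signs of PRKCB and PRKCH flipped by library size only. Depth limits PRKD1 most.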

Other observations

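PRKCQ, a protein kinase C isoform known from T cells, was at 10.5 and 8.60 CPM in the controls and 4.71, 5.76 and 6.52 CPM in the knockdown, which were all below both controls. Its log2 fold change was -0.75 (SE 0.31, edgeR adjusted p = 0.117), -0.61 without control 1 and -0.90 without control 2. The T-cell marker CD3D was at 2.20 and 3.10 CPM in the controls and 0.615 to 0.938 CPM in the knockdown. It is 1 of the 13 blood markers, whose median log2 fold change was 0.06. CD3D missed the threshold without a filter (edgeR adjusted p = 0.0826) and by library size only (edgeR adjusted p = 0.0752). The part of T cells in the PRKCQ values was not tested. Among relatives of the family, PKN2 was at 0.10 and PKN3, whose exons overlap ZDHHC12, at 0.81 on the log2 scale, and neither passed (edgeR adjusted p = 0.794 and 0.304).

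By the root-mean-square difference of centred log2 CPM over the 5 libraries, the tested genes with the profile nearest to PRKD3 were SKAP1 (0.033), TMOD3 (0.033) and ABCF2 (0.035). Those nearest to PRKCI were FASTKD3 (0.037), YPEL1 (0.052) and NAA50 (0.063). The nearest isoform to PRKD3 was PRKCH, at 0.142, and to PRKCI it was PRKCH too, at 0.293. Among all tested genes PRKCH held only place 490 for PRKD3 and place 1608 for PRKCI. It had 18 to 34 reads in each library. PRKCZ, the other atypical isoform, was at 0.659 from PRKCI.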
